A study of Rattus norvegicus with 15 samples.

Results

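The genes described here are innate inflammatory mediators and Toll-like receptors of the rat brain after intracerebral hemorrhage, a bleed into brain tissue. They were taken from a list of 8 Ensembl gene IDs: the receptors Tlr2 (ENSRNOG00000009822) and Tlr4 (ENSRNOG00000010522), the cytokines Il1b (ENSRNOG00000004649), Il6 (ENSRNOG00000010278) and Tgfb1 (ENSRNOG00000020652), the enzymes Ptgs2 (ENSRNOG00000002525) and Nos2 (ENSRNOG00000011023), and complement C3 (ENSRNOG00000046834). The symbols come with that list, since the count table gives IDs without names. Of the 8, 6 had a row among the 15094 genes of the table, and all 6 passed the filter on low counts. Il6 and Nos2 had no row and were not analysed here.

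RNA was sequenced from brain tissue of Sprague-Dawley rats, an outbred laboratory strain, with basal ganglia named as the source of the cells, at 72 h after modelling. The 3 groups were a sham operation (Sham, 5 libraries), hemorrhage (ICH, 3 libraries: replicates 1, 2 and 5) and hemorrhage with mithramycin A (ICH_MA, 3 libraries: replicates 1, 2 and 3). A further 2 labelled ICH and 2 labelled ICH_MA samples were not analysed here. The sources used here do not state how the hemorrhage was made, what the Sham and ICH rats received in place of the drug, its dose, route and timing, or the age of the rats. Mithramycin A is an antibiotic that binds GC-rich DNA and is used to block the transcription factor Sp1. Total counts per library ranged from 56393423 to 67733469. The labels give 1 batch for all samples, and no other batch was found in the labels. Markers of brain or blood cell types could not be checked, because the table carries no gene names. In bulk tissue, more cells of a type and more RNA per cell cannot be told apart.

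Toll-like receptors sit on microglia, macrophages and neutrophils and recognise microbial products and molecules released by damaged cells. TLR4 responds to heme and other products of lysed blood, TLR2 to lipoproteins, and both signal through the adaptor MyD88 to the transcription factor NF-kB. Its targets include Il1b, Il6, Ptgs2, Nos2 and C3. Tgfb1, a cytokine best known for restraining inflammation and for driving scar formation, is secreted in a latent form by the same phagocytes and by other cells.

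The sequence just before the annotated start of these genes is shown because mithramycin A binds GC-rich DNA and NF-kB acts on promoters of this family. Sequences are from RefSeq, build GRCr8, whereas the counts were made on mRatBN7.2. A promoter was found for 7 of the 8 listed genes. The 250 bases before the start were searched on both strands for the GC box GGGCGG, to which Sp1 binds, a form of the NF-kB motif (GGGA, any 4 bases, then CC), the AP-1 motif TGACTCA and the TATA box TATAAA. The windows printed whole are those of Tgfb1 (chr1:90324062-90324311, plus strand), Il1b (chr3:137036582-137036831, minus strand) and C3 (chr9:2201340-2201589, minus strand). For Tlr2 (chr2:171504558-171504807, minus strand) and Ptgs2 (chr13:64713813-64714062, plus strand) the 30 bases around each match are given. The Tlr2 window lies inside the span of another RefSeq transcript. Each runs 5′ to 3′, capitals mark the matches, and positions count back from the start.
Tgfb1, 250 bases: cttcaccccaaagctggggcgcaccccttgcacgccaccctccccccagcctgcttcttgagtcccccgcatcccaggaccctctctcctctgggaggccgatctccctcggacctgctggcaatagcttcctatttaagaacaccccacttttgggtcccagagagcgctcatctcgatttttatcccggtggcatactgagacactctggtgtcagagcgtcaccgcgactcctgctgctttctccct
Il1b, 250 bases: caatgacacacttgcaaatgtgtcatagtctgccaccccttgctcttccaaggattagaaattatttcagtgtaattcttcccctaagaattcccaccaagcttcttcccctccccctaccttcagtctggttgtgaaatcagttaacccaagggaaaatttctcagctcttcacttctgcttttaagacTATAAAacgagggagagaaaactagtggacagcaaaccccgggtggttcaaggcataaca
C3, 250 bases: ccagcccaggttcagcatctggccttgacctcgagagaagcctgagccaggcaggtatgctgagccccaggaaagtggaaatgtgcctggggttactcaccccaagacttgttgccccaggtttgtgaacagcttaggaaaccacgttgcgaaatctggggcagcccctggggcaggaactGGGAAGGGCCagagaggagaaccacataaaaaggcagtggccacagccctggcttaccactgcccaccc
Tlr2, NF-kB form from base 205: aggcccttggGGGAATTCCCatacggagcc
Tlr2, GC box from base 102: gcagacccctgtGGGCGGcgcttgtcgcac
Tlr2, NF-kB form from base 42: ccctggcctgGGGACGTCCCcttcccgcac
Ptgs2, GC box from base 238: gaaggatgcagaGGGCGGtgcagctctctt
The GC box was present in Tlr2 and Ptgs2 and not in the windows of Tlr4, Il1b, Il6, Tgfb1 or C3. It was present in 30.5% of all 33469 promoters of that length. The NF-kB form was found at 2 places in Tlr2, 1 in C3 and 1 in Il6, against 16.4% of all promoters with at least 1. The TATA box was found in Il1b (12.9% of all promoters) and the AP-1 motif in none of the 7 (4.05% of all promoters). GC content was 60% in Tgfb1 and Tlr2, 58.8% in C3, 57.2% in Ptgs2, 50% in Tlr4 and 44% in Il1b, with a median of 51.2% over all promoters. A match is a description of letters and not evidence of binding. Nor is a window without a match evidence that binding sites are lacking, since only these forms were searched, in 250 bases.

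Levels are given in CPM, counts divided by the library's scaled total and set to a common total for all libraries. A gene was called changed at an adjusted p under 0.05 in edgeR's quasi-likelihood F test over the 14963 genes tested, with all 11 libraries in 1 model.

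The first comparison asked what hemorrhage alone changed. Of the 6 genes, 3 rose in ICH against Sham (Tlr2, Tgfb1 and Tlr4) and none fell. Among all tested genes 15.0% rose. The median log2 fold change was 1.42 over the 6 genes and 0.00 over all genes. In 5 of the 6 every ICH library was above every Sham library, the exception being Ptgs2, and 15.2% of all genes had this order. The genes were listed with earlier results of these data known, so these counts describe them and do not test the list.

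The second comparison set rats with hemorrhage given the drug against rats with hemorrhage not given it. What the latter received in its place is not stated, so effects of the drug and of giving it cannot be told apart. None of the 6 genes passed between ICH_MA and ICH with edgeR, where 0% of the tested genes did. The smallest edgeR adjusted p of all tested genes here was 0.176, which is also the value of Tgfb1 and C3. At an unadjusted p under 0.05 there were 3 of the 6 (Tlr2 and Tgfb1 lower, C3 higher in ICH_MA), beside 15.5% of all genes (2318 genes). DESeq2 called Tgfb1 lower and C3 higher, beside 3.19% of all genes (477 genes), and limma-voom called 0 genes. The median log2 fold change was −0.40 over the 6 genes and −0.02 over all genes.

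The third comparison set the treated rats against Sham. Here 4 of the 6 genes rose (Il1b, C3, Tlr2 and Tgfb1) and none fell, beside 5.00% of all genes that rose. The median log2 fold change was 1.22 over the 6 genes and 0.00 over all genes. In the same 5 genes as before, all but Ptgs2, every ICH_MA library was above every Sham library, an order found in 11.8% of all genes. The comparisons share libraries: the Sham libraries serve ICH and ICH_MA alike, and the ICH libraries enter the first and second comparison.

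**Figure D1:**
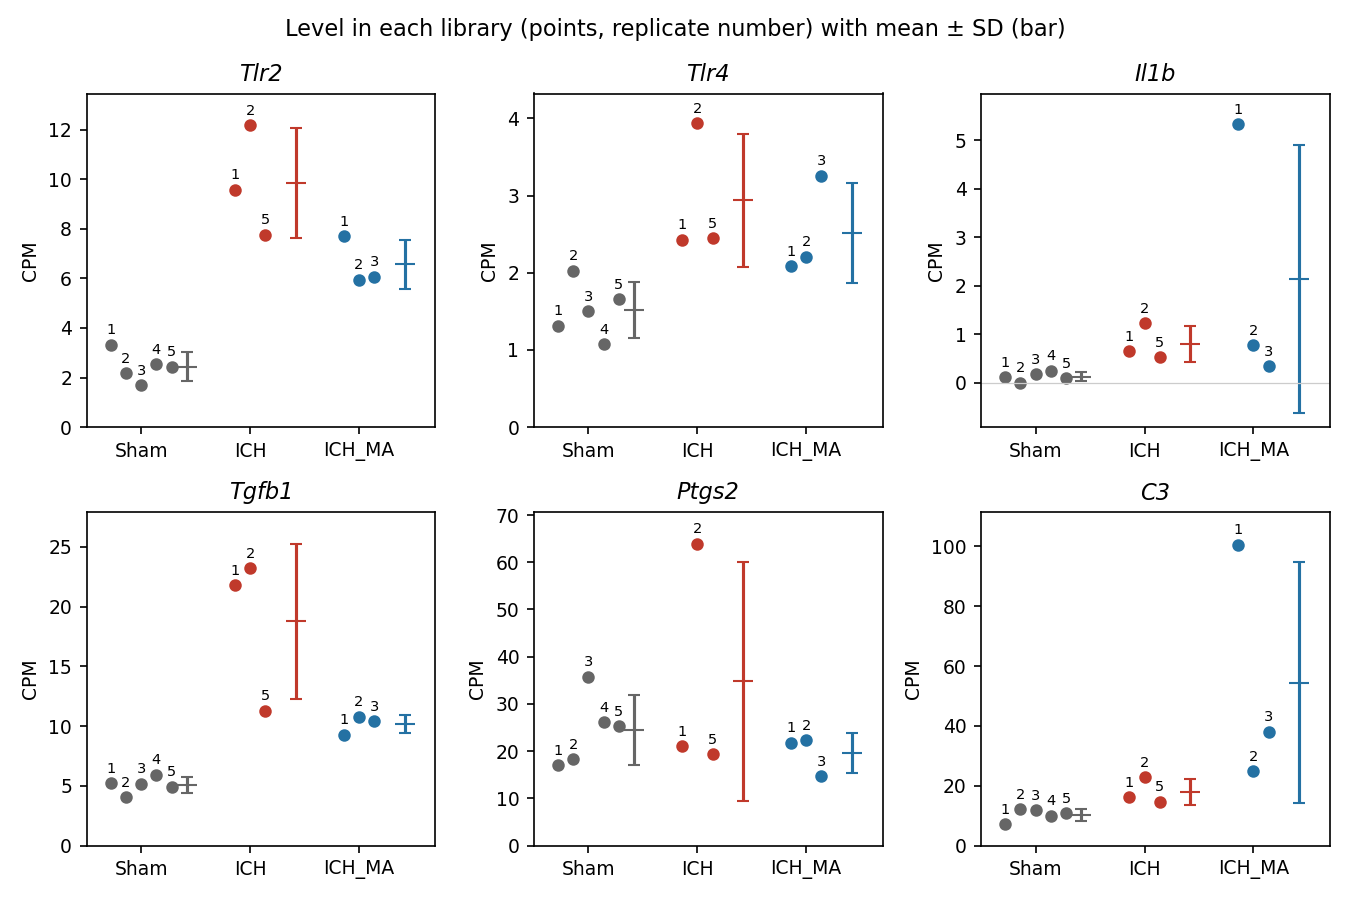
Level of each gene in CPM (vertical axes, each starting at 0 except for Il1b, whose SD bar runs below 0) in the Sham, ICH and ICH_MA libraries. Points are libraries with their replicate number, and bars give the mean ± SD (n = 5, 3 and 3). ICH replicate 2 is the highest ICH library in all 6 panels, and ICH_MA replicate 1 stands above all other libraries for Il1b (5.33 CPM) and C3 (100.5 CPM).

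Tlr2, the receptor for bacterial lipoproteins, was higher after hemorrhage in every library. Sham replicates 1 to 5 had 3.32, 2.18, 1.70, 2.53 and 2.44 CPM. ICH replicates 1, 2 and 5 had 9.58, 12.2 and 7.77 CPM, and ICH_MA replicates 1, 2 and 3 had 7.71, 5.94 and 6.06 CPM. The 3 groups did not overlap and lay in the order Sham, ICH_MA, ICH, although the lowest ICH and the highest ICH_MA library were close together. The mean was 2.44 ± 0.59 CPM over the 5 Sham libraries (SD), 9.84 ± 2.22 over the 3 ICH libraries and 6.57 ± 0.99 over the 3 ICH_MA libraries. Tlr2 rose 4.03-fold in ICH against Sham (log2 fold change 2.01, SE 0.21, edgeR adjusted p = 0.000274) and 2.7-fold in ICH_MA against Sham (1.43, SE 0.21, edgeR adjusted p = 0.00366). Both calls held in all 17 alternatives run, the second only just with the replicate number as a block (edgeR adjusted p = 0.0494). Between ICH_MA and ICH the log2 fold change was −0.58, with a 95% interval of −1.09 to −0.07 and an edgeR adjusted p of 0.271, so this difference did not pass. Without ICH replicate 2 it was −0.40, with a 95% interval of −0.95 to 0.15. The interval also reached above 0 without ICH_MA replicate 2 and without ICH_MA replicate 3. Tlr2 and Tgfb1 were the 2 of the 6 genes with every ICH_MA library below every ICH library, an order found in 9.14% of all genes.

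Tlr4, the receptor for bacterial lipopolysaccharide and for heme, changed less than Tlr2. Its levels in Sham replicates 1 to 5 were 1.31, 2.03, 1.51, 1.07 and 1.66 CPM. In ICH replicates 1, 2 and 5 they were 2.43, 3.94 and 2.45 CPM, and in ICH_MA replicates 1, 2 and 3 they were 2.08, 2.21 and 3.26 CPM. Every ICH and ICH_MA library lay above the Sham libraries, ICH_MA replicate 1 only just, and the ICH and ICH_MA libraries overlapped. Tlr4 rose 1.94-fold in ICH (log2 fold change 0.95, SE 0.26, edgeR adjusted p = 0.0204). This call rested on ICH replicate 2, without which the log2 fold change was 0.69 (edgeR adjusted p = 0.114). Against Sham the ICH_MA log2 fold change of 0.73 (SE 0.26) did not pass (edgeR adjusted p = 0.119). Against ICH it was −0.22, with a 95% interval of −0.86 to 0.41 (edgeR adjusted p = 0.756).

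Tgfb1 had the clearest rise among the cytokines. Sham replicates 1 to 5 had 5.21, 4.05, 5.19, 5.94 and 4.92 CPM. ICH replicates 1, 2 and 5 had 21.8, 23.2 and 11.3 CPM, and ICH_MA replicates 1, 2 and 3 had 9.30, 10.8 and 10.4 CPM. ICH replicate 5 thus lay just above the ICH_MA libraries, far from the other two ICH libraries. The mean was 5.07 ± 0.68 CPM over the 5 Sham libraries (SD), 18.8 ± 6.51 over the 3 ICH libraries and 10.2 ± 0.77 over the 3 ICH_MA libraries. The rise in ICH was 3.70-fold (log2 fold change 1.89, SE 0.20, edgeR adjusted p = 0.000292) and held in all 17 alternatives run.

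In ICH_MA, Tgfb1 rose 2.01-fold against Sham (log2 fold change 1.00, SE 0.20, edgeR adjusted p = 0.0165). This call was lost without ICH_MA replicate 2 (adjusted p = 0.0708), without ICH_MA replicate 3 (adjusted p = 0.0556) and with limma-voom (adjusted p = 0.0676), while the edgeR and limma-voom log2 fold changes in these settings stayed between 0.96 and 1.01. Against ICH the log2 fold change was −0.88, with a 95% interval of −1.39 to −0.38 and an edgeR adjusted p of 0.176. DESeq2 placed the same difference past the threshold (adjusted p = 0.0201). Without ICH replicate 5 it was −1.15 (edgeR adjusted p = 0.00217), in a fit that called 7.59% of all genes. The log2 fold change stayed below 0 in all 17 alternatives run, with adjusted p between 0.00217 and 0.485. The ICH_MA and ICH libraries did not overlap, so leaving out a library could hardly turn this sign. Leaving out a Sham library, which is not part of this comparison, gave −0.87 or −0.88.

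Il1b, which encodes the cytokine interleukin-1 beta, was the rarest of the genes in counts. Sham replicates 1 to 5 held 8, 0, 11, 16 and 5 counts, and the 0 in replicate 2 allows up to 0.0471 CPM (3 counts, counting error only). ICH replicates 1, 2 and 5 held 39, 74 and 35 counts, and ICH_MA replicates 1, 2 and 3 held 325, 44 and 23 counts. All ICH and ICH_MA libraries were above all Sham libraries, and ICH_MA replicate 1 was far above every other library. In CPM it stood at 5.33, against 0.771 and 0.338 in the other two ICH_MA libraries and 0.53 to 1.23 in ICH. That is 6.91 times the next ICH_MA library, and 0.18% of all tested genes (27 genes) had as large a step between the first and second ICH_MA library.

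The Il1b results followed this library. Against Sham, ICH_MA had a log2 fold change of 4.05 (SE 0.89, edgeR adjusted p = 0.0225), and without ICH_MA replicate 1 it was 2.10 (edgeR adjusted p = 0.134). The call was also lost without Sham replicate 3 (adjusted p = 0.0514), without Sham replicate 5 (adjusted p = 0.0575) and with limma-voom (adjusted p = 0.0876). Against ICH the log2 fold change was 1.42, with a 95% interval of −0.61 to 3.44 (edgeR adjusted p = 0.487), and without ICH_MA replicate 1 it was −0.54 (edgeR adjusted p = 0.807). The sign of the Il1b difference between ICH_MA and ICH thus changed with this 1 library.

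ICH_MA libraries also bore on the comparison they are not part of. In ICH against Sham, Il1b had a log2 fold change of 2.64 (SE 0.91) and missed the threshold (edgeR adjusted p = 0.0532), and C3 had 0.78 (SE 0.37, edgeR adjusted p = 0.142). All 3 groups share 1 estimate of spread per gene in this model. Without ICH_MA replicate 1 the log2 fold changes stayed at 2.64 and 0.78, the SEs were smaller, and both genes passed (edgeR adjusted p = 0.0164 for Il1b and 0.021 for C3). Then 5 of the 6 genes rose, beside 14.4% of all genes. With only the ICH and Sham libraries in the model the same 5 rose (edgeR adjusted p = 0.0213 for Il1b and 0.0215 for C3), beside 13.2% of all genes. Il1b, but not C3, also passed without ICH_MA replicate 3 (edgeR adjusted p = 0.0332) and with DESeq2 on all libraries (adjusted p = 0.016). The adjusted p of Il1b ranged from 0.016 to 0.169 over the 17 alternatives run, and that of C3 from 0.021 to 0.378.

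C3, the central complement protein from which the opsonin C3b is cut, was the gene in which ICH_MA lay above ICH without overlap. Sham replicates 1 to 5 had 7.17, 12.2, 11.8, 10.01 and 10.8 CPM. ICH replicates 1, 2 and 5 had 16.2, 22.8 and 14.7 CPM, and ICH_MA replicates 1, 2 and 3 had 100.5, 24.9 and 38.1 CPM. The groups lay in the order Sham, ICH, ICH_MA with no overlap, which is not the order seen for Tlr2 and Tgfb1. Higher ICH_MA than ICH libraries without overlap were found in 7.87% of all genes.

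C3 rose 5.24-fold in ICH_MA against Sham (log2 fold change 2.39, SE 0.36, edgeR adjusted p = 0.00434). Without ICH_MA replicate 1 it still rose, by a log2 fold change of 1.60 (edgeR adjusted p = 0.00859), in a fit in which 3 of the 6 genes (Tlr2, Tgfb1 and C3) and 2.23% of all genes rose. Against ICH the log2 fold change was 1.60, with a 95% interval of 0.68 to 2.52 and an edgeR adjusted p of 0.176. Without ICH_MA replicate 1 it was 0.81 (edgeR adjusted p = 0.29), and with DESeq2 and all libraries 1.61 (adjusted p = 0.0372). With all libraries, only 0.2% of all tested genes had a higher log2 fold change than C3 in ICH_MA against ICH. That rank includes ICH_MA replicate 1, which was 2.64 times the next ICH_MA library. As large a step was found in 0.615% of all tested genes (92 genes).

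Ptgs2, which encodes the inducible cyclooxygenase COX-2 that makes prostaglandin precursors and is also made by active neurons, did not pass in any comparison. Sham replicates 1 to 5 had 17.1, 18.3, 35.8, 26.1 and 25.3 CPM. ICH replicates 1, 2 and 5 had 21.1, 63.9 and 19.4 CPM, and ICH_MA replicates 1, 2 and 3 had 21.8, 22.4 and 14.7 CPM. Apart from ICH replicate 2, all ICH and ICH_MA libraries lay within or below the Sham range. ICH replicate 2 was 3.04 times the next ICH library, and 0.481% of all tested genes (72 genes) had as large a step. The log2 fold change in ICH was 0.51 (95% interval −0.31 to 1.32, edgeR adjusted p = 0.353), and −0.28 without ICH replicate 2 (edgeR adjusted p = 0.51). In ICH_MA it was −0.32 against Sham (95% interval −1.16 to 0.52, edgeR adjusted p = 0.683) and −0.83 against ICH (95% interval −1.76 to 0.11, edgeR adjusted p = 0.379). Without ICH replicate 2 the last value was −0.04.

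**Figure D2:**
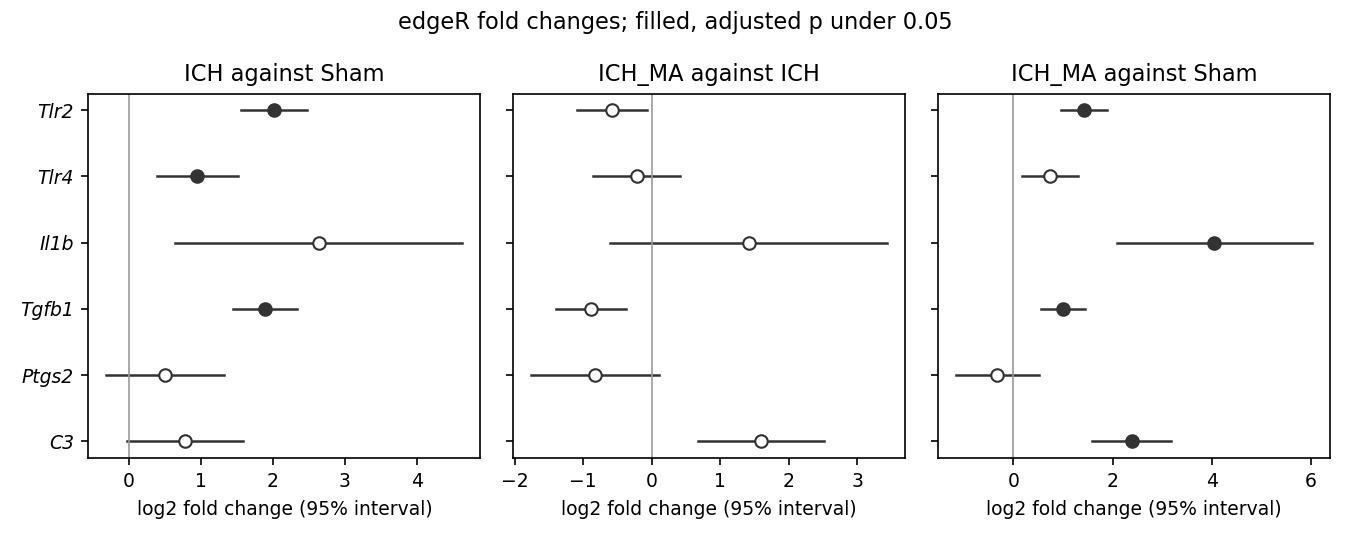
Log2 fold changes from edgeR (horizontal axes) of the 6 genes in the 3 comparisons, with 95% intervals as lines. Filled points passed at an adjusted p under 0.05: Tlr2, Tlr4 and Tgfb1 in ICH against Sham, none in ICH_MA against ICH, and Tlr2, Il1b, Tgfb1 and C3 in ICH_MA against Sham.

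Single libraries recur across these genes. ICH replicate 2 was the highest ICH library for 6 of the 6 genes, and for 29.6% of all tested genes. ICH replicate 5 was the lowest for 5 of the 6, the exception being Tlr4, and for 38.5% of all tested genes. ICH_MA replicate 1 was the highest ICH_MA library for Tlr2, Il1b and C3 and the lowest for Tlr4 and Tgfb1. Over all tested genes it was the highest in 34.6% and the lowest in 35.1%, so these counts of 3 and 2 of the 6 genes do not set it apart. Its step above the next ICH_MA library was large in Il1b (6.91 times) and C3 (2.64 times). Steps as large were found in 0.18% and 0.615% of all tested genes. Totals of these libraries (58317912, 65438000 and 60442343 counts) lay within the range of the other libraries. What else set these libraries apart was not tested.

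**Figure D3:**
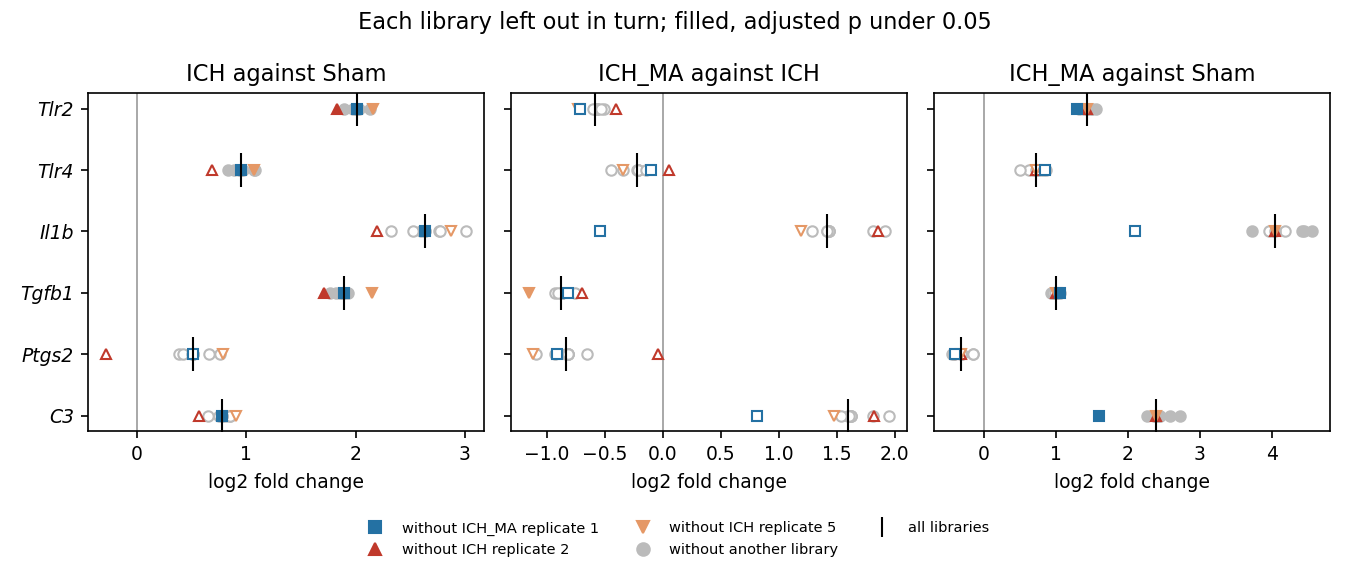
Log2 fold changes (horizontal axes) of the 6 genes with each of the 11 libraries left out in turn (symbols, filled where the adjusted p was under 0.05) and with all libraries (black ticks). Without ICH_MA replicate 1, Il1b moves from 1.42 to −0.54 in ICH_MA against ICH, and without ICH replicate 2, Ptgs2 moves from 0.51 to −0.28 in ICH against Sham.

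Likeness between the genes is given as Pearson's r of log2 CPM over the 11 libraries, with no test, since the libraries share groups and scaling. The most alike pair was Tlr2 and Tgfb1, with r = 0.93. After the group means were removed r was 0.43. Il1b and C3 had r = 0.77 over all libraries, 0.52 with group means removed and 0.56 over the 10 libraries without ICH_MA replicate 1. Tlr4 and Il1b had r = 0.41, and −0.54 with group means removed. The 5 pairs with Ptgs2 had r from −0.03 to 0.33, and from 0.12 (Tlr2) to 0.53 (Tgfb1) with group means removed.

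**Figure D4:**
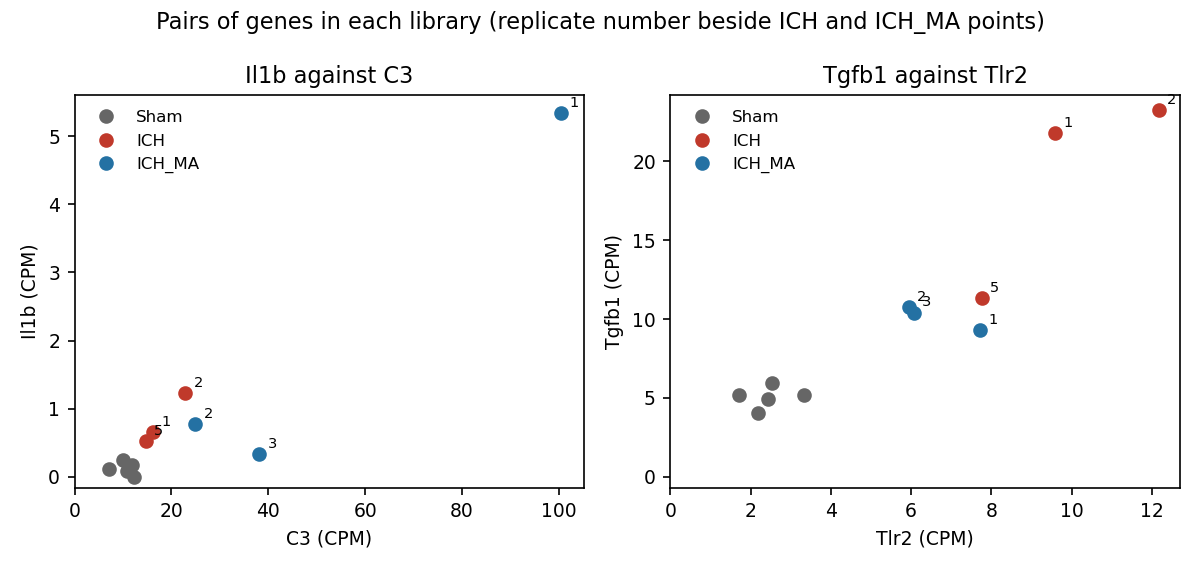
Il1b against C3 and Tgfb1 against Tlr2, in CPM, with 1 point per library and replicate numbers beside the ICH and ICH_MA points. ICH_MA replicate 1 lies alone at 100.5 CPM of C3 and 5.33 CPM of Il1b, while in the other panel the same library lies with the ICH_MA group and with ICH replicate 5.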

How the data were processed

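The authors deposited whole-number counts per gene, not normalized, for 15094 rat genes by Ensembl ID in 11 of the 15 labelled samples. Columns were matched by the library name in the labels. Per the submitters' processing notes, Bowtie2, RSEM 1.3.1, DESeq2 1.4.5 and the build mRatBN7.2 were used. Roles, annotation release, strand use and rounding are not stated there, and reads shared with overlapping or antisense genes could be divided between IDs.

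Genes were filtered with filterByExpr (minimum count 10, minimum total 15), which removed 131. The edgeR 4.0.16 model (R 4.3.3) had TMM scaling and a mean per group, and contrasts were tested with the quasi-likelihood F test and Benjamini-Hochberg adjustment over 14963 genes. A prior count of 2 was added for log2 CPM. The alternatives were RLE scaling, no filter, DESeq2 1.42.0, limma-voom 3.58.1, only the groups compared, a replicate block and leaving out each library. The fit was tested on simulated data.

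The members and lists were chosen with earlier results of these data known. All listed members were named, whatever they did, and for Il1b and Tlr2 the 1 most alike gene was also named. The planned lists of other pathway genes and cell type markers hold symbols, which none of the reference tables pairs with the IDs, so they were not tested. The measures of single libraries (highest, lowest, step to the next) were chosen after the data were seen. The labels do not tie libraries to single rats, so p-values measure the spread between libraries. No 2 libraries were identical.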

Additional observations from a re-analysis of the deposited data

How the results depend on the processing

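Over 306 recomputed member values (18 values, 17 alternatives each), 282 kept their direction and their side of the threshold, 12 lost a call, 9 gained one and 3 changed sign. The alternatives include leaving out libraries of the group not compared. These can change a call through the shared spread but hardly move a fold change, so part of this agreement was fixed in advance. The sign changes came with 1 library left out: Ptgs2 in ICH against Sham (−0.28) and Tlr4 in ICH_MA against ICH (0.05), both without ICH replicate 2, and Il1b in ICH_MA against ICH (−0.54) without ICH_MA replicate 1. With each library left out in turn these 3 log2 fold changes ranged from −0.28 to 0.79, from −0.45 to 0.05 and from −0.54 to 1.92. None of these values was called, and the cause was not tested.

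Counts of called genes were 3662 in ICH against Sham, 0 in ICH_MA against ICH and 998 in ICH_MA against Sham. DESeq2 gave 477 in ICH_MA against ICH and 1830 in ICH_MA against Sham, and a model with only the groups compared gave 1541 in the latter. With 1 library left out the counts ranged from 1992 to 4484, from 0 to 1137 and from 348 to 1575. The lowest for ICH against Sham came without ICH replicate 1 (2231 without ICH replicate 2), and the highest of every comparison without ICH replicate 5. For ICH_MA against ICH the count was 1 without Sham replicate 1 and 0 in the other 9 cases. For ICH_MA against Sham, dropping ICH_MA replicate 1, 2 or 3 gave 459, 348 or 506, and dropping Sham replicate 2, 3, 4 or 5 gave 570, 545, 577 or 569.

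With the replicate number as a block the counts were 1914, 0 and 117, and Tlr4 in ICH (adjusted p = 0.0616) and Il1b, Tgfb1 and C3 in ICH_MA against Sham (0.21, 0.136 and 0.117, edgeR) did not pass. The labels do not say that numbers pair the libraries. Deviations of same-numbered libraries from their group means correlated at −0.16 to 0.09 across genes, and in 2 of 16 cases was a library most like its own number. Il1b levels in Sham rest on 0 to 16 counts per library, which limits its fold changes against Sham.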

Other observations

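By the rule for likeness, the gene outside the list most like Tlr2 over the 11 libraries was ENSRNOG00000013907 (Pearson's r = 0.985 of log2 CPM, among 14957 genes). Its mean was 30.2 ± 2.08 CPM over the 5 Sham libraries (SD), 54.1 ± 5.2 over the 3 ICH libraries and 48.3 ± 3.61 over the 3 ICH_MA libraries. The gene most like Il1b was ENSRNOG00000008755 (r = 0.914), with means of 145.2 ± 4.56 CPM (SD) over the Sham, 158.1 ± 4.12 over the ICH and 159.0 ± 3.88 over the ICH_MA libraries. Its spread over the libraries is small beside that of Il1b, since r does not measure size. The files do not pair these IDs with names, and no p is given, since each is the highest of many values.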
